A study of Mus musculus with 5 samples.

Results

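Red blood cells of the embryonic mouse limb were taken from the scRNA-seq data as every forelimb and hindlimb matrix column, with no quality filter, in which 7 globin genes (Hba-a1, Hba-a2, Hba-x, Hbb-bs, Hbb-bt, Hbb-bh1 and Hbb-y) made up at least 50% of the column's unique molecular identifiers (UMIs). A matrix column holds the counts of one cell barcode and is called a red column here when it meets this rule. There were 7580 red columns among 54203 limb columns and 84440 columns in the whole series. The forelimb library held 4011 of 28266 (14.2%, 95% exact binomial interval 13.8 to 14.6) and the hindlimb library 3569 of 25937 (13.8%, 13.3 to 14.2). These intervals, like all others on counts below, cover counting error only. The rule used the summed globin share, so that share and every gene compared between red and other limb columns are given as a description with no test.

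The series held 1 forelimb library and 1 hindlimb library from embryos labelled day 15, and 3 libraries of the penis at postnatal day 6 (P6), with no other allele and no treatment named. All libraries are labelled C57BL/6N, whereas the study's methods name the strain C57BL/6J. The study's text also gives slightly younger and older limb ages in places, and the label is used here. By the study's methods the limbs came from male embryos and the penises, without prepuce, from 3 males of more than 1 litter. The methods give a number of embryos for the limbs together and none for each library. The limb libraries may share embryos. Each limb therefore had 1 library and no replicate, and forelimb and hindlimb were not compared by a test. Tissue, age and preparation cannot be told apart between penis and limb.

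In the mouse, the first red blood cells arise in the yolk sac and carry embryonic globins, zeta (Hba-x) with epsilon-y (Hbb-y) and beta-h1 (Hbb-bh1). Red cells made later in the fetal liver carry the adult alpha (Hba-a1, Hba-a2) and beta (Hbb-bs, Hbb-bt) chains. Red columns below that were rich in Hbb-y also held UMIs of Hba-a1 and Hba-a2. A hemoglobin molecule joins alpha-type and beta-type chains around haem, whose synthesis in red cells begins with the enzyme Alas2. Maturing red cells expel the nucleus and clear their mitochondria and most RNA other than that of globin, and mammalian blood at mid-gestation can hold cells of both origins.

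The beta-type genes lie in one cluster on chromosome 7 and the alpha-type genes in one on chromosome 11 (GRCm38, GENCODE M21). Hbb-y spans chr7:103851749-103853216, Hbb-bh1 chr7:103841637-103843164, Hbb-bs chr7:103826534-103828096 and Hbb-bt chr7:103812524-103813996, all on the minus strand. Hba-x spans chr11:32276400-32278116, Hba-a1 chr11:32283511-32284465 and Hba-a2 chr11:32296489-32297298, all on the plus strand. The 150 bases before the RefSeq start are shown for an embryonic and an adult gene of each cluster (RefSeq promoter table, GRCm38.p6, 6 of the 7 globins matched). The split of the red columns below sets embryonic against adult globins, and ran more fully along the beta pair than the alpha pair. Capitals mark matches on either strand to CACCC (letters that Klf-type factors are known to bind), CCAAT (bound by CCAAT-binding factors), GATAA (bound by Gata factors) and the TATA box letters ATAAA or TATAA.
Hbb-y, chr7:103853208-103853357, minus strand: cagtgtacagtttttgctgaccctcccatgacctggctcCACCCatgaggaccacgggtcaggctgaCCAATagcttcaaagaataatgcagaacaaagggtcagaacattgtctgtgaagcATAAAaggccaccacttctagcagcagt
Hbb-bs, chr7:103827929-103828078, minus strand: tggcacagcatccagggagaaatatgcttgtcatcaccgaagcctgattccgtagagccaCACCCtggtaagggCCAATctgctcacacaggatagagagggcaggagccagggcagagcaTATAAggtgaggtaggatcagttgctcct
Hba-x, chr11:32276450-32276599, plus strand: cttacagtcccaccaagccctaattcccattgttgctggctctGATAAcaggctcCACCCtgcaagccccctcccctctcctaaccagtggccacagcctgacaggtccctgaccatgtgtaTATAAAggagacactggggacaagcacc
Hba-a1, chr11:32283522-32283671, plus strand: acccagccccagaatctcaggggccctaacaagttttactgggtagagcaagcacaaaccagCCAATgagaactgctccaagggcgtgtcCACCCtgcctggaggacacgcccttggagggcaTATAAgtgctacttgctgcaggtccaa
All 4 windows held CACCC, which was in 37.4% of the same window of 32851 promoters. CCAAT (24.5% of all promoters) was matched in Hbb-y, Hbb-bs and Hba-a1, and GATAA (13.3%) in Hba-x. TATAA (14.2%) was matched in Hba-x, Hbb-bs and Hba-a1 and ATAAA (24.1%) in Hbb-y and Hba-x, where it overlaps TATAA. A match is a description of the letters in this window and not of binding.

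Few limb columns had a globin share near the limit of the rule. The median share of the red columns was 85.5% in the forelimb and 88.3% in the hindlimb, and the maxima were 93.3% and 94.0%. Only 99 forelimb and 77 hindlimb columns lay between 50 and 60% globin, against 2877 and 2914 at 80% or more. Just inside the limit the lowest column had 50.1% in the forelimb and 50.2% in the hindlimb, and just outside it the highest had 49.8% and 49.7%. Columns under 5% globin, called low-globin columns here, numbered 23638 and 21717, and globin made up 0.153% and 0.127% of their summed UMIs. Between 5 and 50% lay 617 and 651 columns. The plot of globin share shows this sparse stretch, in which no 1-point bin was empty in either limb.

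**Figure D1:**
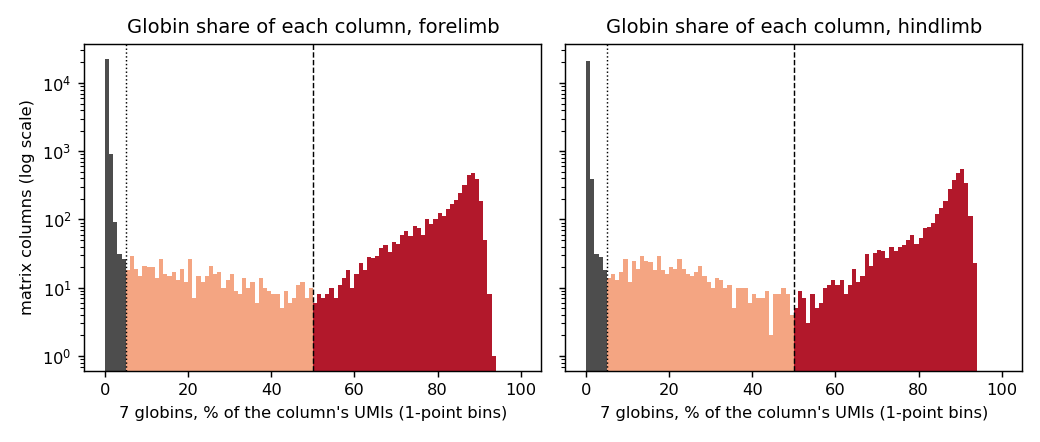
Share of each column's UMIs (x axis, %) that came from the 7 globins, as a histogram of matrix columns (y axis, log scale) in 1-point bins for the forelimb and hindlimb libraries; dotted and dashed lines mark 5% and 50%. Low-globin columns (grey) and red columns (dark red) lie at the ends of the axis, with 617 forelimb and 651 hindlimb columns spread between the lines.

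Red columns were shallower and held few genes. Forelimb and hindlimb red columns had median depths of 2199 and 2857 UMIs, held 197 and 201 genes at the median and only 302 and 307 UMIs from genes other than the 7 globins. Low-globin columns had medians of 4942 and 5670 UMIs and 2234 and 2485 genes. Of the red columns, 3839 in the forelimb and 3454 in the hindlimb fell under the study's limit of 0.8 on log10 genes per log10 UMIs, and 172 and 111 passed all of its limits. Over all red columns there were 1456029 non-globin UMIs in the forelimb and 1337628 in the hindlimb. Levels below are counts per 1000000 of these non-globin UMIs (CPM), summed over columns, so that the globins themselves do not set the scale. These are 3' tag counts, 1 per captured molecule, so levels of different genes are not divided by length.

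The globin UMIs of the red columns were mostly adult. In the forelimb 52.9% were Hbb-bs, 18.0% Hbb-bt, 15.6% Hba-a1 and 12.2% Hba-a2. In the hindlimb the same genes made up 51.5%, 18.1%, 16.4% and 12.9%. Hbb-y made up 1.05% and 0.887%, Hba-x 0.253% and 0.228%, and Hbb-bh1 0.00592% and 0.00444%. Most red columns of these embryonic limbs therefore held adult-type globins, and the word embryonic is used here for the age of the tissue. Of the 4 markers that came with the label, Hba-a1 and Hbb-bs were among the leading genes, Hbb-y came mostly from few columns, and at least 1 UMI of Alas2 was found in 66.4% and 69.7% of red columns against 1.72% and 2.37% of the deeper low-globin columns. Transcripts of Hba-a1 and Hba-a2 were 99.8% identical over 538 aligned bases, and those of Hbb-bs and Hbb-bt 93.6% over 609, so the split within each pair is uncertain, whereas Hba-a1 and Hba-x (69.5%) and Hbb-bs and Hbb-y (74.9%) are well apart.

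The embryonic globins were not spread evenly over the red columns. For each column the embryonic share is the share of Hba-x, Hbb-bh1 and Hbb-y among its 7 globins. It was under 5% in 3879 forelimb and 3457 hindlimb columns, and no embryonic globin UMI at all was found in 78.7% and 81.9% of these. It was at least 50% in 127 forelimb columns (3.17% of red columns, 95% exact binomial interval 2.65 to 3.76) and 107 hindlimb columns (3.00%, 2.46 to 3.61). Only 5 columns in each limb lay between. The 5% and 50% limits were chosen after the values were seen, and what follows on these embryonic-globin and adult-globin columns carries no test.

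**Figure D2:**
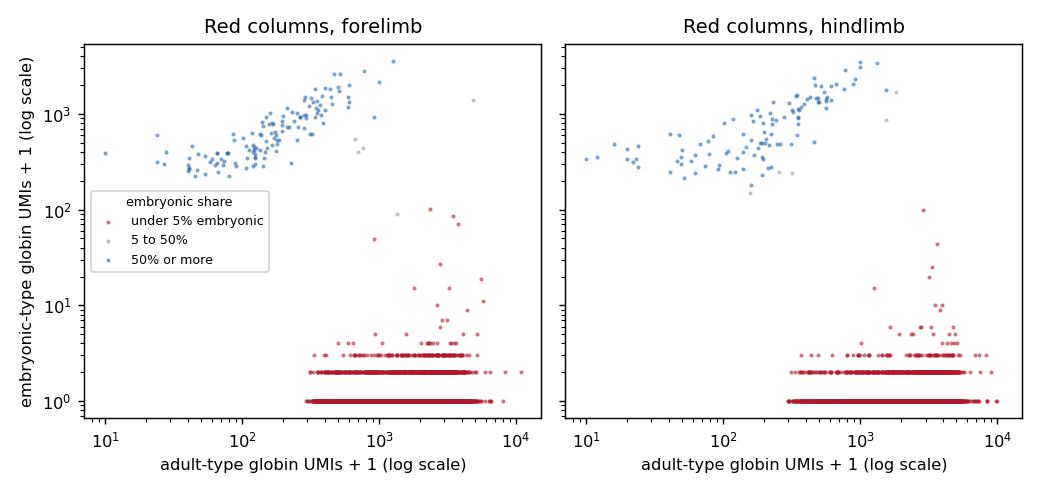
Adult-type (x axis) and embryonic-type (y axis) globin UMIs of every red column, each plus 1 on a log scale, for forelimb and hindlimb; a point is a column and its colour gives its embryonic share. The 127 forelimb and 107 hindlimb columns at 50% or more (blue) lie apart from the columns under 5% (red), with 5 columns of each limb between (grey).

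Hbb-y dominated the embryonic-globin columns. It made up 62.8% of their globin UMIs in the forelimb and 60.6% in the hindlimb, followed by Hba-x with 15.0% in both. Hbb-bh1 made up 0.160% and 0.208%, and at least 1 UMI of it was found in 31.5% and 25.2% of these columns. There were 393 and 291 Hbb-y UMIs for each UMI of Hbb-bh1. Adult-globin columns held 0.0178% and 0.0108% embryonic globin.

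The alpha-type and beta-type chains of the embryonic-globin columns differed in how far they were embryonic. The embryonic share of beta-type UMIs per column had a median of 95.1% in the forelimb (range 58.9 to 99.5) and 95.2% in the hindlimb (67.9 to 99.3). Hba-x, in contrast, made up a median of 45.9% of alpha-type UMIs in the forelimb (4.76 to 97.8) and 45.6% in the hindlimb (3.72 to 98.5). The remaining alpha-type UMIs were adult. There were 23146 adult alpha and 5161 adult beta UMIs in the forelimb columns, or 4.48 alpha for each beta, against 0.388 in the adult-globin columns. In the hindlimb there were 25838 and 5075, or 5.09 against 0.417. The adult alpha count was 11.5 times that which the adult beta count would bring at the ratio of the adult-globin columns in the forelimb, and 12.2 times in the hindlimb. Of all globin UMIs, Hbb-bs made up 2.10% and Hbb-bt 1.92% in the forelimb, and 2.30% and 1.67% in the hindlimb. Hba-a1 made up 65.7% and 64.4% of adult alpha UMIs there, against 56.0% in adult-globin columns of both limbs. As stated above, the split between Hba-a1 and Hba-a2 is uncertain.

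**Figure D3:**
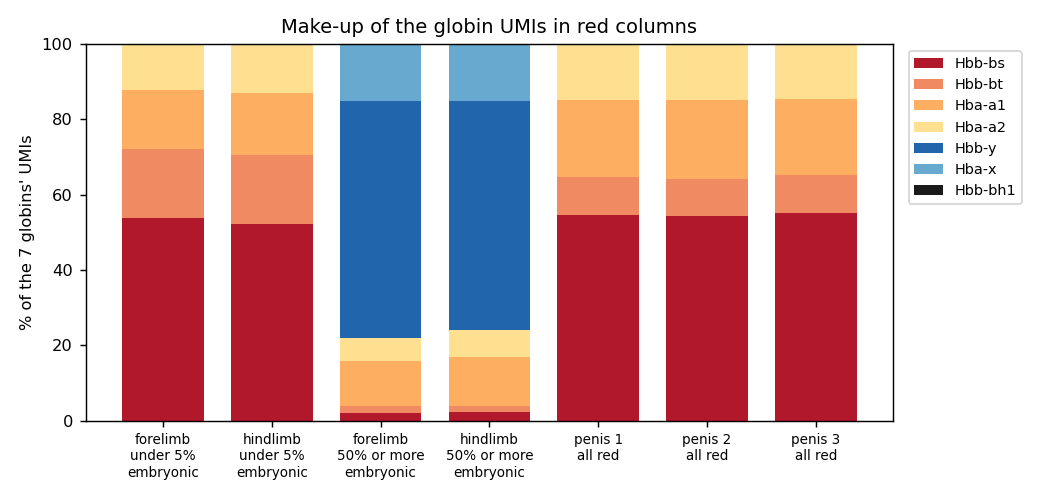
Share of each of the 7 globins (y axis, % of their UMIs, stacked) in adult-globin and embryonic-globin columns of each limb and in all red columns of the 3 penis libraries. Hbb-y (dark blue) fills 62.8% and 60.6% of the embryonic-globin bars, beside 11.8% and 13.0% Hba-a1, and no blue is visible in the penis bars.

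Globin UMIs in the low-globin columns were richer in embryonic globin than the red columns were. The embryonic share of globin UMIs was 3.51% in forelimb and 4.03% in hindlimb low-globin columns, against 1.31% and 1.12% over all red columns. It was 7.47% and 5.41% in the 172 and 111 red columns that passed the study's limits. Columns of 5 to 50% globin had 1.73% and 1.72%.

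The 2 kinds of red column also differed in other genes. Among 1295 non-globin genes with at least 100 UMIs in the 2 kinds together, 54 (4.17%) were at least 2-fold higher in embryonic-globin columns of both limbs and 120 (9.27%) at least 2-fold lower. Adult-globin columns held 1403506 and 1293975 non-globin UMIs in forelimb and hindlimb, against 50153 and 40539 in embryonic-globin columns. Genes thus reached 100 UMIs mostly through the adult-globin columns. Both counts are partly set by this filter and are given as a description. Among the lowest, by the smaller of the ratios in the limbs, were Slc25a37, Mkrn1 and Alas2. Alas2 had 160 CPM (68.9 to 314, 95% Poisson interval, 8 UMIs) in forelimb embryonic-globin columns against 5515 in adult-globin columns, and 222 (102 to 421, 9 UMIs) against 6167 in the hindlimb. The mitochondrial iron carrier Slc25a37 was at 0 UMIs in the forelimb, at least 46.0-fold lower than the 2750 CPM of adult-globin columns when set at 3 counts over the group, and had 2 UMIs in the hindlimb against 3035 CPM. Mkrn1, a ubiquitin ligase gene, had 9 UMIs and 3 UMIs (74.0 CPM, 15.3 to 216) against 7204 and 8015 CPM.

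Several other red cell genes were lower in embryonic-globin columns by smaller factors. Gpx1, a glutathione peroxidase, was 11.0-fold and 15.6-fold lower, and Bpgm, which makes bisphosphoglycerate, 10.6-fold and 10.4-fold. Prdx2, an abundant peroxiredoxin of red cells, was 2.63-fold and 2.77-fold lower, and Slc4a1, the band 3 anion exchanger, 6.29-fold and 2.77-fold on 5 and 9 UMIs. Summed over the 8 haem synthesis genes, embryonic-globin columns had 399 and 888 CPM against 7664 and 8357 in adult-globin columns. The 19 genes of terminal maturation summed to 4706 and 5427 against 25467 and 27821. These genes also varied with depth. In the shallowest of 4 equal groups of adult-globin columns, with medians of 895 and 1085 UMIs beside 1078 and 1217 in embryonic-globin columns, the maturation genes summed to 8732 and 8178 CPM, the haem synthesis genes to 2452 and 2649, and Alas2 had 1711 and 1968. At this total depth the differences were in the same direction and smaller. Non-globin UMIs per column were fewer there, with medians of 216 and 210 against 318 and 324 in embryonic-globin columns. In the next-to-deepest group, with medians of 330 and 344.5 non-globin UMIs, the differences were larger. The maturation genes summed to 29272 and 32675 CPM there, the haem synthesis genes to 9030 and 10024, and Alas2 had 7178 and 7748. The part of depth in these differences was not tested. The sums of 2 red cell lists were higher in embryonic-globin columns. The 12 iron supply genes summed to 60036 and 76963 CPM in embryonic-globin columns, 1.20 and 1.44 times their sum in adult-globin columns, most of it Fth1. The 16 erythroid transcription factors summed to 1017 and 987 CPM, 1.53 and 1.36 times, on only 51 and 40 UMIs.

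Genes with the largest ratios in favour of embryonic-globin columns were ranked among those with at least 100 UMIs. Of these, the amino acid transporter Slc38a2 had 1396 CPM (1088 to 1763) and 1554 (1194 to 1988) against 94.8 and 118 in adult-globin columns. Ppp1r15a, a stress-induced phosphatase subunit, had 937 and 1233 against 76.95 and 74.96, and Sqstm1, an autophagy receptor, 578 and 715 against 57.7 and 76.5. Lamp1, a lysosomal membrane protein, was 7.53-fold and 10.0-fold higher, and Rsrp1 6.31-fold and 5.24-fold. The iron store gene Fth1 had 44763 and 61126 CPM against 22085 and 24106, while Ftl1, its partner chain, was lower at 14675 and 15171 against 22865 and 23875 (this pair was chosen after the values were seen).

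Ribosomal protein genes made up a larger part of the non-globin UMIs in embryonic-globin columns. The 96 genes named Rpl or Rps took 25.6% in the forelimb and 25.1% in the hindlimb, against 19.1% and 18.4% in adult-globin columns. Of the 80 with at least 100 UMIs, 9 were at least 2-fold higher in both limbs and 0 lower, next to 4.17% of all genes higher and 9.27% lower.

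Nuclear and mitochondrial RNA differed in opposite directions. The nuclear RNA Malat1 had 16529 CPM (829 UMIs) in forelimb and 26715 (1083 UMIs) in hindlimb embryonic-globin columns, against 4531 and 4958 in adult-globin columns and 9029 and 9369 in low-globin columns. Neat1, another nuclear RNA, had 20 and 19 UMIs there, or 399 and 469 CPM, against 39.2 and 22.4 in adult-globin columns. Mitochondrially encoded genes took 3.45% and 3.32% of the non-globin UMIs against 5.41% and 5.94%, and 4.30% and 4.04% in low-globin columns. In the shallowest of the 4 groups of adult-globin columns they took 4.51% and 5.07%, and in the next-to-deepest 5.13% and 5.89%. The part of depth in this difference was not tested.

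Embryonic-globin columns were the shallower kind. Their medians were 1078 UMIs in the forelimb and 1217 in the hindlimb, against 2249 and 2912, and their median globin share was 68.4% and 71.2% against 85.8% and 88.5%. The number of non-globin UMIs per column hardly differed, with medians of 318 and 324 against 302 and 307. The 6 mesenchyme markers summed to 3330 and 2590 CPM, no more than the 4046 and 3910 of adult-globin columns. Chondrocyte, macrophage, mast cell and megakaryocyte or platelet markers also had lower sums in both limbs. Endothelial markers had higher sums (99.7 and 173 CPM against 64.1 and 65.7, on 5 and 7 UMIs), as did neutrophil markers (99.7 and 24.7 against 46.3 and 17.002, on 5 UMIs and 1 UMI), and muscle, keratinocyte and glial markers differed in direction between the limbs. The part of this RNA in the differences between the 2 kinds was not tested. Of the embryonic-globin columns 32 (25.2%) and 21 (19.6%) passed the study's column limits, against 3.61% and 2.52% of adult-globin columns.

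**Figure D4:**
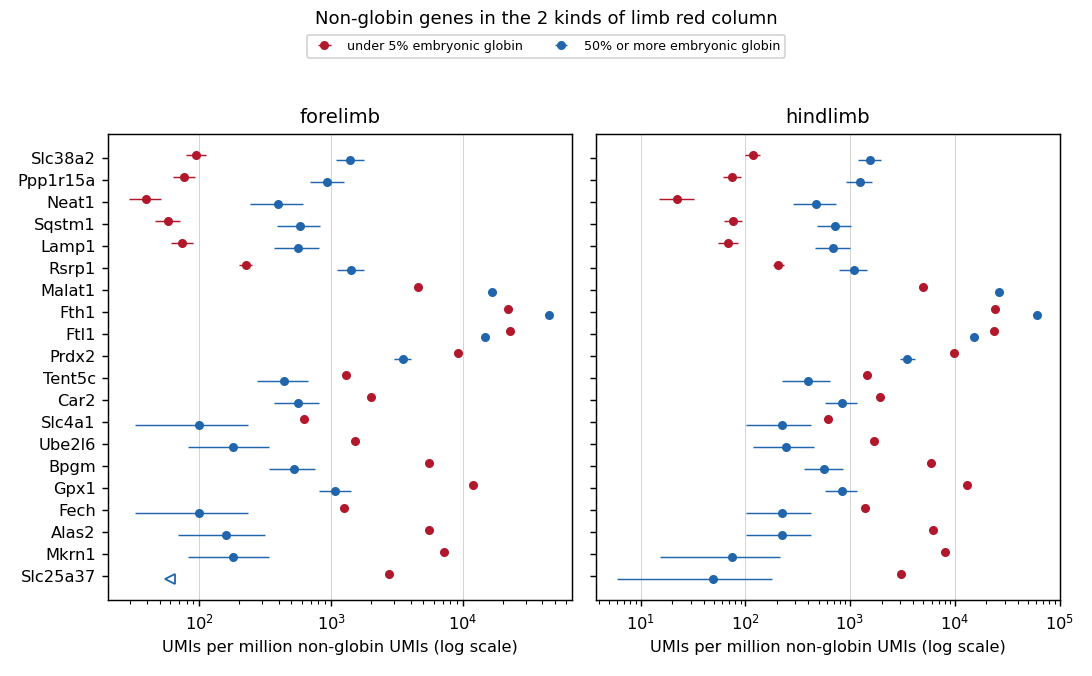
Level of non-globin genes (CPM, log scale, 95% Poisson bars for counting error) in adult-globin (red) and embryonic-globin (blue) columns of each limb; the open triangle marks 3 counts for Slc25a37, which had 0 in the forelimb. Genes from Slc38a2 to Fth1 lie further right in embryonic-globin columns, and those from Ftl1 down lie further left, in both limbs.

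Hbb-bh1 was also found outside the embryonic-globin columns. In the forelimb, 2 red columns with 86.7% and 88.3% globin held 69 and 84 Hbb-bh1 UMIs beside 1 and 0 of Hbb-y and 1781 and 1643 of Hbb-bs. Another forelimb column, at 30.2% globin, held 35 of Hbb-bh1 and 0 of Hbb-y. These columns were noticed after their values were seen. By contrast, the embryonic-globin column with the most Hbb-bh1, in the hindlimb, held 89 beside 2300 of Hbb-y.

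Set against low-globin columns, the red columns held higher levels of several genes of late red cells. Of 5230 non-globin genes at 25 CPM or more (mean of red and low-globin level, in each limb), 267 (5.11%) were at least 2-fold higher in red columns of both limbs and 2069 (39.6%) at least 2-fold lower. The median ratio over these genes was 0.516 in the forelimb and 0.513 in the hindlimb. Both counts follow from the rule that chose the columns. Members of the gene lists below could reach 25 CPM through the red columns alone, as Alas2 and Trim10 (336 CPM in forelimb red columns, 0.402 in low-globin columns) did, so the counts of higher and lower members are partly set by this filter and are given as a description. With a limit of 25% globin in place of 50%, the count of lower genes was 105.

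The 15 genes with the largest ratios included 2 theta globin genes outside the rule, Hbq1a (157 and 135 CPM) and Hbq1b (96.8 and 91.2), which had 7 and 6 UMIs and 10 and 9 UMIs in all low-globin columns of forelimb and hindlimb. The anion exchanger gene Slc4a1 had 608 and 603 CPM in red columns against 0.479 and 0.347 in low-globin columns. Alas2 had 5324 and 5973 CPM against 3.00 and 3.67. Tspo2, Trim10, Car2, Ube2l6, Gm867, Gm32051 and Gm38619 were also among the 15. Over the genes named here the ratio in the limb where it was smaller ran from 436-fold for Ube2l6 to 3175-fold for Hbq1a, beside a median of 0.516 over all genes.

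Of 8 haem synthesis genes, 7 reached the level of 25 CPM defined above, and these were at least 2-fold higher in red columns, beside 5.11% of all genes, a count that the filter largely fixes. Alas2 led, followed by Fech, the enzyme that inserts iron (1212 and 1361 CPM), and Urod (373 and 342). Of 12 iron supply genes, 6 had that level and 5 were higher, led by Fth1 (22864 and 25226 CPM), Ftl1 (22587 and 23573), Slc25a37 (2652 and 2937) and Glrx5 (1470 and 1595). The transferrin receptor Tfrc, which earlier erythroblasts use to take up iron, had 45.3 and 33.6 CPM and was within 2-fold of low-globin columns.

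Membrane, metabolism and maturation genes are counted in the same way, beside 5.11% of all genes higher and 39.6% lower. Of 20 membrane and skeleton genes, 10 reached 25 CPM, 8 were higher and 0 lower, among them Epb41 (1387 and 1478 CPM) and Rhd (239 and 244). Of 14 matched genes of metabolism and antioxidants, 7 of 11 were higher and 0 lower. Gpx1 led with 11498 and 12725 CPM, then Prdx2 (8979 and 9573), Bpgm (5314 and 5745) and Blvrb (3825 and 3997). The glycolytic genes Gapdh (637 and 738) and Pgam1 (145 and 153) were within 2-fold. Of 19 maturation genes, 13 of 15 were higher and 0 lower, led by Mkrn1 (6955 and 7757 CPM), with Bnip3l, which helps clear mitochondria (2555 and 2752), and Gabarapl2 (2171 and 2304) among them. All 7 non-globin genes of the study's own red blood list were higher, a list chosen on these samples and so not independent evidence.

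Of 16 erythroid transcription factors, 7 reached 25 CPM, and the list summed to 148% and 129% of its level in low-globin columns. Among these, Lmo2 (152 and 158) and E2f2 (94.8 and 117) were higher, beside 5.11% of all genes, and Bcl11a (27.5 and 40.4) was lower, beside 39.6%. Sox6 (98.9 and 100.2) and Foxo3 (88.6 and 100.2) differed by less than 2-fold in at least 1 limb. Klf1 had 23.4 and 18.7 CPM and Gata1, the master erythroid factor, 8.24 and 6.73, in both cases above the 1.21 and 1.02, and 1.32 and 1.19, of low-globin columns. Of 10 receptor and progenitor genes, 5 had that level, 4 of them lower, beside 39.6% of all genes. Cd24a, a surface protein, was higher (1371 and 1592 CPM) and brought the sum of the list to 364% and 397% of its low-globin level, and the lower ones included Cd34 (39.1 and 25.4) and the signalling genes Stat5b (21.3 and 18.7) and Jak2 (19.2 and 20.2). Kit, the stem cell factor receptor, had 4.81 and 10.5 CPM, and the erythropoietin receptor gene Epor 4.12 and 2.24 on 9 UMIs in all.

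Among 16 cell division genes, Ube2c stood apart. It had 1992 and 2066 CPM against 165 and 152 in low-globin columns, a ratio of 12.1 and 13.6. Of the other 14 genes at this level, 13 were within 2-fold or differed between limbs and Mcm4 was lower (23.4 and 29.2 CPM), beside 5.11% of all genes higher and 39.6% lower. Top2a had 115 and 134 against 243 and 244, and Mki67 141 and 117 against 144 and 149. Ube2c encodes the ubiquitin-conjugating enzyme of the anaphase-promoting complex.

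RNA of other limb cells was present in the red columns. The 6 mesenchyme markers summed to 4017 and 3865 CPM, 44.3% and 46.4% of their level in low-globin columns, beside median ratios of 0.516 and 0.513 over all genes, and all 6 were detected. Col1a1 had 1247 and 1136 CPM and Col3a1 1498 and 1488. Chondrocyte markers stood at 72.8% and 71.4% of their low-globin level, muscle markers at 91.2% and 89.3%, endothelial at 33.5% and 36.3%, macrophage at 53.7% and 36.4% and mast cell markers at 35.8% and 39.5%. Keratinocyte markers were higher than in low-globin columns, at 267% and 276%, with all 3 genes above 2-fold (Krt15 at 137 and 131 CPM). Of these markers Mpo was at 0 in both limbs, Ppbp and Gp9 in the forelimb, and Gp1bb and Elane in the hindlimb. Of the other globins, Ngb was at 0 in both limbs, Hbb-bh2 had 0 and 1 UMI, and Mb (8 and 2 UMIs) and Cygb (9 and 7) were few. Glial markers summed to 13.7 and 5.98 CPM, megakaryocyte or platelet markers to 57.0 and 118, and neutrophil markers to 48.1 and 17.2. The part of this RNA in the other results was not tested.

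Gm42418 gave a large non-globin signal, at 69166 and 59118 CPM in forelimb and hindlimb against 5770 and 4560 in low-globin columns. The gene lies at chr17:39846958-39848788 on the plus strand. AY036118, annotated within its span on the minus strand (chr17:39847113-39848035), had 13875 and 11209 CPM against 696 and 524. Both genes are counted in the non-globin UMIs that set the CPM scale, and take a larger part of it in red columns. Reads of 2 overlapping genes may not be separable, and these genes were picked after their values were seen.

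Within the adult-globin columns several values moved with depth. The columns of each limb were split into 4 equal groups by their total UMIs, with medians from 895 to 3958 in the forelimb and from 1085 to 4738 in the hindlimb. The share of Hbb-bt in adult beta UMIs was 16.2%, 20.8%, 25.9% and 28.8% from the shallowest to the deepest forelimb group, and 15.2%, 22.0%, 26.6% and 29.7% in the hindlimb. The share of Hba-a1 in adult alpha UMIs changed little, from 56.3% to 55.6% in the forelimb and from 56.3% to 55.5% in the hindlimb. As stated above, the split within each of these pairs is uncertain. Alas2 had 1711, 4018, 7178 and 6654 CPM in the forelimb and 1968, 5073, 7748 and 7202 in the hindlimb.

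Other genes of late red cells were also higher in the deeper groups. Mkrn1 went from 2567 to 8599 CPM in forelimb and from 2564 to 9033 CPM in hindlimb columns. The summed maturation genes went from 8732 to 33774 and from 8178 to 35535, and the division genes, which include Ube2c, from 2392 to 4031 and from 2432 to 3945. Mesenchyme markers ran the other way, from 4692 to 3806 and from 4939 to 3446. The median globin share was 74.9% in the shallowest and 87.9% in the deepest forelimb group, and 79.8% and 89.5% in the hindlimb. The part of RNA from other cells in these gradients was not tested.

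Columns between 5 and 50% globin had medians of 6715 and 6792 UMIs and 2246 and 2304 genes. Per 1000 globin UMIs they held 1.19 and 1.08 of Alas2 and 1.60 and 1.27 of Mkrn1, against 0.986 and 0.897 and 1.29 and 1.17 in adult-globin columns. No doublet caller was run. The forelimb and hindlimb matrices shared 203 barcodes, of which 3 were red in both, and other pairs of libraries shared 20 to 88.

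Red columns of the P6 penis were the only other red columns in the series, with 883, 785 and 665 in the 3 libraries. The comparison asks how red cells of the limb embryo differ from those of a young male after birth. Embryonic globin was almost absent from them, with 2, 15 and 3 UMIs among 4301451, 3399827 and 2398811 globin UMIs, against 104378 of 7987215 (1.31%) in the forelimb and 101109 of 9030138 (1.12%) in the hindlimb. No red column of the penis had an embryonic share of 5% or more. The groups did not overlap, but the smallest p that the 10 splits of 3 and 2 libraries allow is 0.1, which this two-sided exact permutation test gave (adjusted p = 0.1 over 5 measures).

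The adult globins also divided differently. Hbb-bt made up 15.5%, 15.4% and 15.4% of adult beta UMIs in the penis libraries and 25.4% and 26.0% in forelimb and hindlimb. Alpha-type genes made up 35.4%, 35.7% and 34.8% of the 7 globins against 28.1% and 29.5%. Mitochondrially encoded genes took 9.67%, 8.58% and 9.89% of non-globin UMIs against 5.33% and 5.86%, and Malat1 had 9313, 9039 and 8616 CPM against 4946 and 5627. None of these groups overlapped, and each gave the smallest p the design allows (exact permutation test, p = 0.1, adjusted p = 0.1). The shares of Hbb-bt and of alpha-type genes were added after the values were seen, and the split between Hbb-bs and Hbb-bt is uncertain. With the study's column limits the mitochondrial difference turned round, from 3.79 to -1.80 percentage points (penis minus limb, and 1.37 with a limit of 25% globin), on 7 to 9 red columns per penis library and with a limit of 5% for penis and 10% for limbs. In low-globin columns Malat1 had 23194, 23469 and 24366 CPM in penis and 9029 and 9369 in the limbs, and the red minus low-globin difference on the log2 scale was more negative in penis (interaction -0.63 ± 0.14 (SE), adjusted p = 0.000265, edgeR, below the log2 limit of 1 used for calls). Over the alternatives this value ran from -0.68 to -0.29 and its adjusted p (edgeR) from 3.05e-07 to 0.116, with 0.0490 without hindlimb. The Malat1 difference between red columns was 3703 CPM, but 9564 with a limit of 25% globin and 10507 with the study's limits.

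Penis red columns were deeper, with medians of 5499, 5047 and 4245 UMIs and 431, 527 and 408 non-globin UMIs. Since free RNA of a tissue can enter any column, each non-globin gene was tested in red columns (edgeR quasi-likelihood test on summed UMIs, 3 penis against 2 limb libraries) and again for the difference between red and low-globin columns (interaction, library as a block), and called at 0.01 for the adjusted p and 1 for the log2 difference. In red columns 684 of 5545 genes (12.3%) were higher in penis and 706 (12.7%) lower. In the interaction test, 232 of 20451 (1.13%) were higher and 517 (2.53%) lower, a split that was 316 and 337 under RLE scaling, 125 and 251 without forelimb, and 124 and 282 without hindlimb. Past both tests in one direction were 137 genes higher (2.47%) and 307 lower (5.54%) in penis.

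Among the genes past both tests, limb red columns lacked or held little of several that penis red columns had. Gda, guanine deaminase, had 327, 244 and 316 CPM in penis red columns and 0 and 2.24 in forelimb and hindlimb. Its log2 difference was 8.01 ± 0.35 (SE), adjusted p = 1.44e-15 (edgeR). All penis values lay above both limb values, which the choice of genes by these same tests largely ensures. Limb red columns held 3 UMIs of Gda in all, 1 of Gm10371, 3 of Paqr9 and 4 of Irf7, so the sizes of these differences rest on few counts. The interferon-induced gene Rsad2 had 1287, 1046 and 1678 CPM against 32.3 and 38.1, a log2 difference of 5.34 ± 0.19 (adjusted p = 3.33e-17, edgeR), and was near 1 CPM in low-globin columns of all 5 libraries (1.10 to 1.60). Paqr9 (47.6 to 69.6 CPM), Gm10371 (49.1 to 59.97), Apol11b (74.4 to 174), A230059L01Rik (45.5 to 75.7), Lrrtm4 (99.3 to 168), Irf7 (21.7 to 24.8) and Ctse (51.7 to 96.2) were each at 0 to 12.4 CPM in the limbs. S100a9, a neutrophil gene, rested on 1 library, with 978 CPM in penis 1 and 8.27 and 6.20 in penis 2 and 3 beside 27.5 and 7.48 in the limbs. Without penis 1 its interaction turned round, from 3.10 to -2.37. The interaction of Irf7 lost its call without any 1 of the 5 libraries (adjusted p from 0.0122 to 0.457, edgeR). Lrrtm4, which was also higher in penis low-globin columns (248 to 256 CPM against 31.8 and 39.7), lost it without forelimb (0.155), hindlimb (0.0493) or penis 2 (0.0319), and A230059L01Rik (0.0942) and Ctse (0.0319) lost it without hindlimb.

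Other genes were found in the limb red columns and hardly in those of the penis. Gmpr, guanosine monophosphate reductase, had 101 and 107 CPM in forelimb and hindlimb and 6.14, 10.3 and 6.20 in penis, a log2 difference of -3.62 ± 0.31 (adjusted p = 5.16e-10, edgeR). Ssx2ip had 126 and 129 against 12.3, 18.6 and 12.4, and Smim1, which underlies a blood group antigen, 96.2 and 132 against 24.6, 10.3 and 9.30. Cfap57 (69.4 and 74.0), Myl4 (64.6 and 65.0), Med31 (34.3 and 27.7), C1qtnf3 (26.1 and 35.9), Krt19 (25.4 and 51.6) and the cell cycle kinase gene Cdk1 (68.7 and 57.6) were at 0 to 12.4 CPM in the penis libraries. Cnfn had 32 and 37 UMIs in the limbs and 0 in all 3 penis libraries, at least 10.7-fold higher in limb when the penis group is set at 3 counts. C1qtnf3 (48.1 and 45.2 CPM), Med31 (42.8 and 39.1) and Cdk1 (105 and 94.7) were higher in limb low-globin than in limb red columns. Krt19 (17.7 and 16.99), Myl4 (44.85 and 31.4) and Cnfn (15.6 and 14.2) were lower there than in red columns. Gmpr (9.47 and 8.28), Ssx2ip (18.99 and 19.99), Smim1 (16.5 and 12.4) and Cfap57 (0.38 and 0.44) were lower there by larger factors. The part of RNA from other cells in these levels was not tested. Krt19 lost its call in red columns without hindlimb (adjusted p = 0.0253, edgeR) and with a limit of 25% globin (log2 difference -0.84, adjusted p = 0.229). In the interaction Myl4 lost it without penis 2 (0.0155), C1qtnf3 without penis 1 (0.0301) or hindlimb (0.0240), and Cdk1 without penis 1 (0.102), penis 3 (0.0274), forelimb (0.0864) or hindlimb (0.0365).

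**Figure D5:**
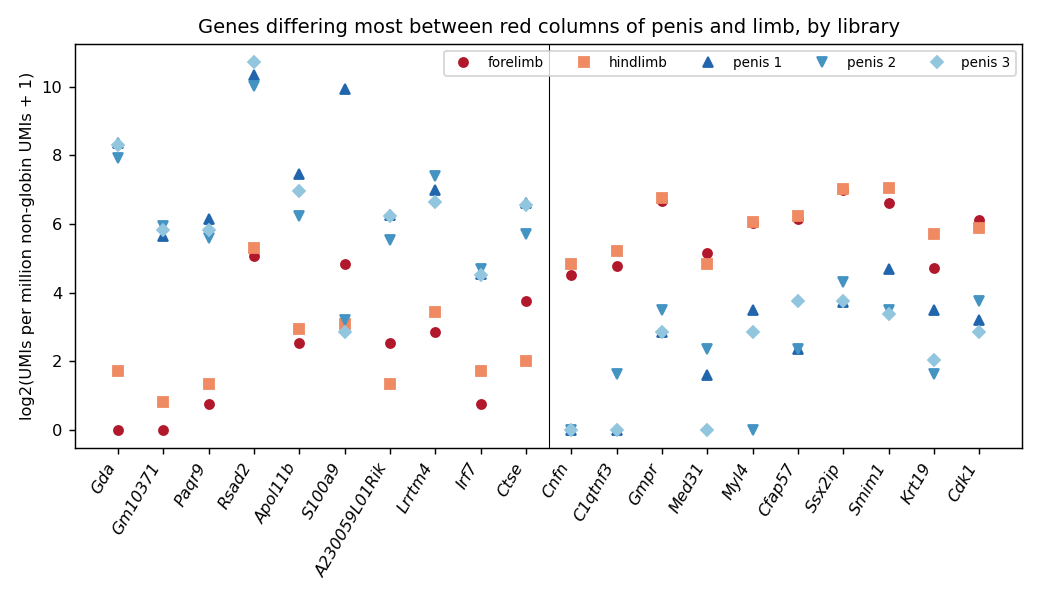
Level of the 20 named genes in red columns of each library, as log2(CPM + 1); a symbol is 1 library and the vertical line parts genes higher in penis from genes lower in penis. The 3 penis libraries lie on 1 side of both limb libraries for each gene except S100a9, where penis 1 stands apart from the other 4 libraries. The genes were chosen as the largest differences between these same libraries, so this separation largely follows from the choice.

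The counts of red cell genes that follow stand beside 12.3% of all genes higher and 12.7% lower in penis. Of the 7 genes tested of the study's red blood list, 3 were higher and 0 lower, with Alas2 past both tests, a list that the study chose on these samples and so no independent evidence. Of 7 haem synthesis genes tested, Alas2 was higher in penis (16625, 12375 and 15319 CPM against 5324 and 5973 in the limbs, log2 difference 1.49 ± 0.13, adjusted p = 5.09e-10, edgeR) and Alad, a later enzyme of the same pathway, lower (24.6, 29.0 and 46.5 against 151 and 139, log2 difference -2.08 ± 0.22, adjusted p = 2.76e-08, edgeR). The other 5 passed in neither direction. Of 7 iron supply genes only Fth1 passed, lower in penis at 8339, 6787 and 7072 CPM against 22864 and 25226. Of 16 membrane and skeleton genes, Epb41 was higher (3345, 2901 and 3750 against 1387 and 1478), and Rhd and the glucose transporter gene Slc2a1 lower. All of these passed the interaction test as well, but Slc2a1 not without penis 1 (interaction adjusted p = 0.0455, edgeR) or forelimb (0.203).

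Of 11 metabolism and antioxidant genes, Hagh was higher in penis (917, 670 and 816 CPM against 181 and 147) and Gapdh, Pgam1 and Txn1 were lower, Gapdh at 151, 126 and 124 against 637 and 738. Pgam1 lost its interaction call without forelimb (adjusted p = 0.0200, edgeR) or hindlimb (0.0240). Of 17 maturation genes, 5 were higher and 0 lower, 1 of them (Ube2o) past both tests. The full list of 19 summed to 45930, 37077 and 44226 CPM in penis red columns, against 24727 and 27098 in limb red columns. In the deepest groups of limb adult-globin columns, with medians of 3958 and 4738 UMIs, it summed to 33774 and 35535. Alas2 had 6654 and 7202 CPM there. The part of depth in the differences between penis and limb was not tested. With a limit of 25% globin, the red column differences of Ube2o (0.87 on the log2 scale) and Txn1 (-0.59) fell short of the log2 limit, as did that of Ube2o without the filter on low counts (0.94). Of 10 transcription factors, E2f2 was higher (313, 298 and 279 CPM against 94.8 and 117). Of 4 receptor and progenitor genes tested, Cd34 was higher (102, 43.4 and 80.6 CPM against 39.1 and 25.4) and 0 lower. Of 3 other globins tested, Hbq1b and Cygb were higher and 0 lower. Cd34, Hbq1b and Cygb were not past both tests. Of 15 division genes, 9 were lower in penis and 0 higher, with a median log2 difference of -1.29 against 0.03 over all genes. Of these 9, Cdk1 passed the interaction test in the same direction. Ube2c was not called in red columns (1487, 1050 and 989 CPM in penis against 1992 and 2066, log2 difference -0.68 ± 0.13, adjusted p = 0.000147, edgeR) and passed the interaction test the other way (1.04 ± 0.13, adjusted p = 1.42e-13, edgeR), with 41.6 to 46.3 CPM in penis low-globin columns against 165 and 152. Ube2c fell short of the log2 limit of 1 in the interaction without penis 1 (0.90) or forelimb (0.97) and with a limit of 25% globin (0.81), and it was chosen after its values were seen. As a list, division genes were also lower in penis low-globin columns (summed 1018 to 1040 CPM against 2102 and 2013 in the limbs). Cdk1 lost its interaction call without penis 1 (adjusted p = 0.102, edgeR), penis 3 (0.0274), forelimb (0.0864) or hindlimb (0.0365).

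Markers of other cell types also differed between the red columns of penis and limb. Col1a1 had 2330, 2395 and 2286 CPM in penis red columns against 1247 and 1136 in the limbs, and 5371, 5257 and 5480 against 2917 and 2492 in low-globin columns. The 6 mesenchyme markers summed to 43.0%, 44.4% and 40.9% of their low-globin level in penis, against 44.3% and 46.4% in the limbs. All 4 endothelial markers, 2 of 3 keratinocyte and both glial markers tested were higher in penis red columns, and all 3 muscle, both mast cell, 3 of 4 chondrocyte and 1 of 3 macrophage markers lower, beside 12.3% of all genes higher and 12.7% lower. Of the 6 mesenchyme markers 2 were higher and 1 lower. Of all these lists, S100a9 and Col9a1 were past both tests, beside 2.47% of all genes higher and 5.54% lower, Col9a1 not without penis 2 (interaction adjusted p = 0.0275, edgeR) or hindlimb (0.0288). The part of this RNA in the counts of genes above was not tested.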

How the data were processed

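Dissociated forelimb, hindlimb and penis cells were profiled with a 10x 3' kit. Per the submitters' processing notes, the authors aligned reads and counted UMIs with Cell Ranger 7.0.0 on mm10 (GRCm38). The annotation release and the treatment of intronic reads are not given in the sources used here. The deposited values are whole-number counts of UMIs per gene (32285 features) and barcode, with no column under 500 UMIs. Library totals ran from 70554067 to 162335993 UMIs.

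Counts were summed per library over red columns (at least 50% globin) and low-globin columns (under 5%), without the 7 globins. The members, lists and comparisons were chosen with earlier results of these data known. A planned split into 4 groups by embryonic share could not be formed, since most columns had a share of 0, and was replaced after the values were seen by the classes at 50% or more and under 5%. Poisson and binomial intervals are exact at 95%. A gene at 0 was set at 3 counts over the group for a bound.

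Penis and limb libraries were compared with edgeR 4.0.16 (quasi-likelihood, TMM scaling, filterByExpr, R 4.3.3, limma 3.58.1), with Benjamini-Hochberg adjustment, and calls needed 0.01 for the adjusted p and 1 for the log2 fold-change. The standard error is the log2 fold-change divided by the root of F. The interaction with low-globin columns had library as a block. Single values were tested by exact two-sided permutation over 10 splits. The gene tests took forelimb and hindlimb, 1 library each, as replicates of a limb group, though they are different tissues and may share embryos. Their p-values draw on dispersion estimated over many genes as well as on the spread of each gene between these libraries.

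Genes named between penis and limb are the 10 largest fold changes in each direction past both tests, those named for limb red columns the 15 largest ratios to low-globin columns with at least 50 UMIs, and those between the classes the 5 largest ratios in each direction, with red cell genes from the lists. Malat1, Neat1, Fth1, Ftl1, Gm42418 and AY036118 were added after their values were seen. Aldoa, Ahsp and Eraf were not analysed here, and some genes that meet these rules are not reported here. Columns were not filtered and doublets not removed. The study's limits (complexity 0.8, mitochondrial share 10% for limbs and 5% for penis, and a range of 100 to 9000 or 9500 for limbs and 500 to 6000 for penis, taken here as genes per column) were an alternative. Others were limits of 75% and 25% globin and of 1% for low-globin columns, RLE scaling, no count filter, DESeq2 1.42.0, means over columns and leaving out each library. On simulated data the edgeR test found 100% of 200 changed genes among 5515 in red columns, DESeq2 90% and the interaction 97.5% among 20238. The changed genes were drawn from well-counted genes, with changes well above the log2 limit of 1 and a fixed dispersion. These shares therefore do not carry over to genes with few UMIs or smaller changes. Tables and figures were made with pandas 2.3.3, matplotlib 3.10.9, scipy 1.17.1, Biopython 1.88 and numpy 2.4.6 in Python 3.11.15.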

Additional observations from a re-analysis of the deposited data

Results flagged for a closer look

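The difference between red and low-globin columns was itself different between penis and limb for 232 genes in one direction and 517 in the other (edgeR interaction test). The values given are the red minus low-globin log2 difference in penis minus that in limb. Among the named genes they were positive, at 7.26 for Gda, 8.44 for Gm10371, 9.78 for Paqr9, 5.03 for Rsad2, 6.42 for Apol11b, 3.10 for S100a9, 3.06 for A230059L01Rik, 1.24 for Lrrtm4, 3.00 for Irf7 and 3.08 for Ctse. They were negative, at -3.81 for C1qtnf3, -4.04 for Gmpr, -3.61 for Med31, -2.31 for Myl4, -4.62 for Cfap57, -2.86 for Ssx2ip, -3.24 for Smim1, -3.27 for Krt19 and -1.41 for Cdk1. The values of Gda, Gm10371, Paqr9 and Irf7 rest on 1 to 4 UMIs in the limb red columns. In penis low-globin columns Apol11b was at 0.0106 to 0.0216 CPM and Paqr9 at 0.0149 to 0.0324. The sizes of these 2 values therefore also rest on few counts there. Those of C1qtnf3 and Med31 rest on 1 and 3 UMIs in the penis red columns. With 1 library left out, the value ran from -13.16 to -3.11 for C1qtnf3, from 5.95 to 17.13 for Gda and from 7.42 to 16.48 for Gm10371. The value of -14.24 for Cnfn depends on the prior count, since the penis red columns held no UMI of it, and is no measure of size.

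Outside the red columns, embryonic globin made up at least 50% of the globin UMIs in 42 forelimb and 37 hindlimb columns of 5 to 50% globin, and in 0 of the 131, 228 and 105 such columns of the penis libraries.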

How the results depend on the processing

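Penis and limb libraries could not be paired, since they came from different animals. The interaction test did pair red and low-globin columns within each library. The labels of the limb libraries carry no replicate number and each limb has 1 library. Genes lower in penis red columns numbered 706, but 1197 without the filter on low counts and 446 with DESeq2 (467 higher), the cause of which was not tested. Leaving out 1 library gave 506 to 699 higher and 570 to 779 lower. For the interaction, the 232 higher and 517 lower genes became 69 and 150 with a limit of 25% globin and 316 and 337 with RLE scaling. Leaving out 1 library gave 124 to 227 higher and 251 to 558 lower, with 125 and 251 without forelimb and 124 and 282 without hindlimb, where the lone limb library is assumed to vary like the others. Genes at least 2-fold lower in limb red than low-globin columns fell from 2069 to 105 with a limit of 25% globin. The mitochondrial difference was -1.80 percentage points under the study's limits. The S100a9 interaction was -1.51 and -0.27 with limits of 75% and 25% globin and ran from -2.37 (without penis 1) to 4.03 (without penis 2) with 1 library left out. Leaving out 1 library moved the difference in embryonic share between -1.31 and -1.12 percentage points, in mitochondrial share between 3.52 and 4.19 and in Malat1 between 3362 and 4044 CPM. The embryonic share itself was 0.659% in forelimb and 0.780% in hindlimb red columns with a limit of 75% globin, 2.56% and 2.39% as a mean over columns and 7.47% and 5.41% under the study's limits. The embryonic difference was then -0.72, -2.48 and -6.44 percentage points, and the Malat1 difference rose to 9564 CPM with a limit of 25% globin and 10507 CPM under the study's limits. The red column test left out Cnfn, C1qtnf3 and S100a9 with a limit of 75% globin, Cnfn with columns of 1000 UMIs or more and S100a9 without penis 1, and DESeq2 gave S100a9 no adjusted p. Of the other alternatives for single genes, 384 kept the call in red columns and 6 lost it (Krt19 without hindlimb, Ube2o without the count filter, and Krt19, Ube2o, Txn1 and S100a9 with a limit of 25% globin), and 253 kept it in the interaction, 41 lost it and 3 reversed. Beside leaving out libraries, the interaction calls of Lrrtm4, Irf7, C1qtnf3, Krt19, Cdk1, Pgam1, Gapdh, Txn1, Ube2o and Col9a1 were lost with a limit of 25% globin, those of Lrrtm4, C1qtnf3, Cdk1 and Slc2a1 with 75%, and those of Cdk1 and Pgam1 with RLE scaling and without the count filter. Gene tests under the study's limits were not run, since 9, 8 and 7 red columns were left in the penis libraries. The embryonic-globin columns held 50153 and 40539 non-globin UMIs, so counting error limits what their low genes can show.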
